A study of Mus musculus with 12 samples.

Results

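RNA abundance was examined for genes of the cornified envelope and of squamous differentiation in mouse prostate organoids of basal origin. The set comprised 42 genes, drawn up after Nccrp1, Krtdap and Crnn had been seen among the genes with the highest coefficients against vehicle in these data. The members were therefore chosen by values from these same samples, and every difference from vehicle in the set is given as a description. Of the 42 genes, 41 were in the deposited table of 24674 genes, and Sprr4 was not found there. A mean of at least 1 TPM in some group was reached by 34 of the 41. The other 7 (Hrnr, Sprr2b, Casp14, Abca12, Alox12b, Aloxe3 and Prdm1) stayed below 1 TPM in every group.

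The cultures were Wildtype, of the C57BL/6 strain, and grew in 3 dimensions in a gel. The treatments were Vehicle, UK5099, Butyrate and UK5099 + Butyrate, and the last of these is called the combination here. UK5099 blocks the carrier that brings pyruvate into mitochondria, and butyrate is a short-chain fatty acid that inhibits histone deacetylases. Each group had 3 samples, 12 in all, and the age of the animals, the doses and the treatment times are not given in the labels of these samples. The labels do not say whether replicates came from separate animals or cultures, so p-values measure only the spread between these samples. Values were TPM, a length-scaled unit of transcript abundance, here fragments divided by the genomic span of a gene and scaled to the same total in each sample, so that levels are compared between samples and not between genes.

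In stratified epithelia, basal cells that move upwards leave the cell cycle and switch on a squamous programme. They make precursor proteins such as involucrin, the small proline-rich proteins and the filaggrin-like proteins, which transglutaminases cross-link under the membrane into a tough shell, the cornified envelope, while lipid enzymes build a water barrier around it. Many of the precursor genes lie side by side in 1 cluster, the epidermal differentiation complex. The prostate epithelium does not normally cornify, although squamous change is known there.

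Defining markers were checked first. The summed level of the basal markers Krt5, Krt14 and Trp63 lay between 3506.7 and 3547.3 TPM in vehicle, 9746.4 and 10238.3 under UK5099, 4486.0 and 4675.7 under Butyrate and 8066.8 and 8319.6 under the combination. Trp63, at most 10.1 TPM in any sample, hardly enters this sum. Under Butyrate Krt5 was higher, at 3119, 3102 and 3235 TPM against 1851, 1855 and 1838 in vehicle. Krt14 was lower there on the TPM scale, at 1365, 1375 and 1432 TPM against 1651, 1687 and 1691. This difference depends on the scaling. The median-of-ratios factors, used below as an alternative, were 1.16 to 1.19 in vehicle and 0.94 to 0.95 under Butyrate. Krt14 levels divided by these factors overlap between the groups. Luminal keratins (Krt8, Krt18 and Krt19) summed to 4132.1 to 4301.4 TPM in vehicle and to 1388.8 to 1576.1 in the combination. The 4 keratins of suprabasal squamous layers, Krt1, Krt10, Krt4 and Krt13, summed to 397 to 446 TPM in vehicle, 804 to 912 under UK5099, 931 to 941 under Butyrate and 989 to 1317.9 under the combination. The vehicle sum was mostly Krt4, at 410, 429 and 382 TPM, and the other 3 were at most 12.9 TPM each there. Krt4 was at 521, 451 and 457 TPM under UK5099, so the sum does not show the change of each keratin. Krt10 and Krt13 are given by group at the end. In a bulk sample, more cells of a type and more RNA per cell cannot be told apart. Endothelial markers summed to at most 0.0415 TPM in any sample, and the pan-leukocyte gene Ptprc had at most 5 fragments in a group. The macrophage-associated gene Cd68 averaged between 24.2 and 91.7 TPM over the groups, and the fibroblast markers summed to 10.4 to 10.8 TPM under Butyrate against 2.01 to 2.60 elsewhere, through Dcn. The part of these shifts in the results below was not tested. Depth lay between 33251844 and 43498967 fragments. UK5099 replicate 1 and combination replicate 1 stood apart from their mates, with a chi-square per gene of 7.42 to 7.96 against 2.03 to 2.91 for the other pairs, and results that rest on them are also given without them.

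The promoters of 7 members are shown because their levels are followed below. The first 4 belong to neighbouring small proline-rich genes that differed in level by treatment, and the others to Crnn, Rptn and Krtdap. Each line gives 210 bases that end at the base before the start site, 5′ to 3′ on the gene's strand, from RefSeq on GRCm38.p6. Capitals mark matches on either strand to the AP-1 motif TGANTCA, the octamer ATGCAAAT and the TATA box letters TATAAA.
Sprr2d: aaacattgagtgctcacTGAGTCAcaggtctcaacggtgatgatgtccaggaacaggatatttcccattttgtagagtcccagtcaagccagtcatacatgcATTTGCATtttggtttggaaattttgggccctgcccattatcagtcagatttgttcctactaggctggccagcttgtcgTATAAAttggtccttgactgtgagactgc
Sprr2e: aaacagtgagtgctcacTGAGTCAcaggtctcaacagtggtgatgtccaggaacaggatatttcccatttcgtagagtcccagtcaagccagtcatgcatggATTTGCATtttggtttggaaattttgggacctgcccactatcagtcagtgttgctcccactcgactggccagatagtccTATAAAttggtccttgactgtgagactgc
Sprr2f: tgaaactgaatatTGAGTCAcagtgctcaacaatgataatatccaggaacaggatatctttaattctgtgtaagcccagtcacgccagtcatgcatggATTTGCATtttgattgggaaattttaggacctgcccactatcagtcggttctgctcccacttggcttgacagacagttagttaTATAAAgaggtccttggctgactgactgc
Sprr2h: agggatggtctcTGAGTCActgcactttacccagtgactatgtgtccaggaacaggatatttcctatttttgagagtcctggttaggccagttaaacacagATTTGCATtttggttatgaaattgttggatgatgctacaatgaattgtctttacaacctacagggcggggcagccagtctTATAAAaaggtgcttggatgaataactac
Crnn: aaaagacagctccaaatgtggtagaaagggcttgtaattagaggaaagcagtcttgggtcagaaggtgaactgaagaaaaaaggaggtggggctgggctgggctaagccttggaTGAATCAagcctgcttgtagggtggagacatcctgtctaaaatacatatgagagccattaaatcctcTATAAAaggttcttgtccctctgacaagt
Rptn: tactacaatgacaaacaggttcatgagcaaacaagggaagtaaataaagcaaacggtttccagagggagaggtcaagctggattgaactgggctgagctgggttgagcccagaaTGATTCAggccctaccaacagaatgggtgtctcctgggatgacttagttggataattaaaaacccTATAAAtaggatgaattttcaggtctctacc
Krtdap: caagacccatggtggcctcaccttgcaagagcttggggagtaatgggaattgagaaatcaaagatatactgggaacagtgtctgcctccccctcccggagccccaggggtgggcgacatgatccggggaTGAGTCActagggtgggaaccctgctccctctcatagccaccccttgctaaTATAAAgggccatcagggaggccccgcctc
These stretches lie at chr3:92338930-92339139, chr3:92351933-92352142, chr3:92364977-92365186, chr3:92385475-92385684, chr3:93144579-93144788, chr3:93393489-93393698 and chr7:30787695-30787904, all on the + strand.

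All 4 Sprr2 stretches held the same arrangement, with an AP-1 match farthest from the start, an octamer match and then a TATA match. The AP-1 match began at -193 in Sprr2d and Sprr2e, -197 in Sprr2f and -198 in Sprr2h, and the TATA match at -29 in each. Sprr2d and Sprr2e had the same letter at 193 of 210 positions, or 91.9%. Crnn, Rptn and Krtdap had an AP-1 match at -96, -96 and -81 and a TATA match at -29, -31 and -30, with no octamer match. Windows of 300 bases, from 250 before to 50 after the start, were found by symbol for 34 of the 41 members (not for Nccrp1, Evpl, Ppl, Calml3, Aloxe3, Ovol1 and Cst6). An AP-1 match was present in 17 of these 34 members, or 50%, against 8.97% of the 27025 genes in the promoter table. TATAAA was present in 15 members, or 44.1%, against 15.7% of all genes, and the octamer in 5, or 14.7%, against 1.97%. The KLF-type letters CCACACCC were found in 4 members, or 11.8%, against 4.09%, and the GRHL-type letters AACCGGTT in 0 members against 0.174%. The shares are descriptions of letters in a fixed window, and neighbouring Sprr2 genes share sequence.

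Each gene was fitted with limma on log2(TPM + 1), with terms for UK5099, for Butyrate and for their interaction, across all 24674 genes. A coefficient is the difference between groups on that scale, which understates the change of genes near 0. A gene was called where the adjusted p-value was under 0.01 and the coefficient was beyond 1 in either direction. Under UK5099 20 of 41 members were called higher than vehicle and 0 lower, where 0.928% of all genes were called higher and 0.912% lower. Under Butyrate 14 were called higher and 1 lower, where 1.13% of all genes were called higher and 2.42% lower. Under the combination 27 were called higher and 0 lower, against 1.79% and 4.63% of all genes. The median coefficient of the members was 0.948, 0.501 and 1.598 in turn, and that of all genes was -0.0339, -0.0737 and -0.1144. Nothing is read from these counts, since the choice of members used the same contrasts. The calls for UK5099 and Butyrate overlapped in 14 members, namely Crnn, Rptn, Sprr1a, Ivl, Evpl, Cysrt1, Tgm1, Krtdap, Sbsn, Dmkn, Elovl4, Ovol1, Nccrp1 and Calml3, and both contrasts used the same vehicle samples. The share of all genes called in both contrasts was not counted, and nothing is read from the overlap. A further 6 (Flg, Sprr1b, Sprr2d, Sprr2f, Sprr2h and Cnfn) were called for UK5099 alone, and Sprr2e was called lower under Butyrate. The Butyrate coefficient of Elovl4, 1.01 ± 0.09, fell within the limit without vehicle replicate 1, at 0.98. The scale matters for these counts: the median coefficient of genes that averaged 1 TPM or more was -0.12 (UK5099), -0.30 (Butyrate) and -0.41 (combination), and with median-of-ratios scaling 21, 16 and 29 members were called. With that scaling 1.07%, 1.76% and 2.94% of all genes were called higher and 0.6%, 1.26% and 1.67% lower.

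**Figure D1:**
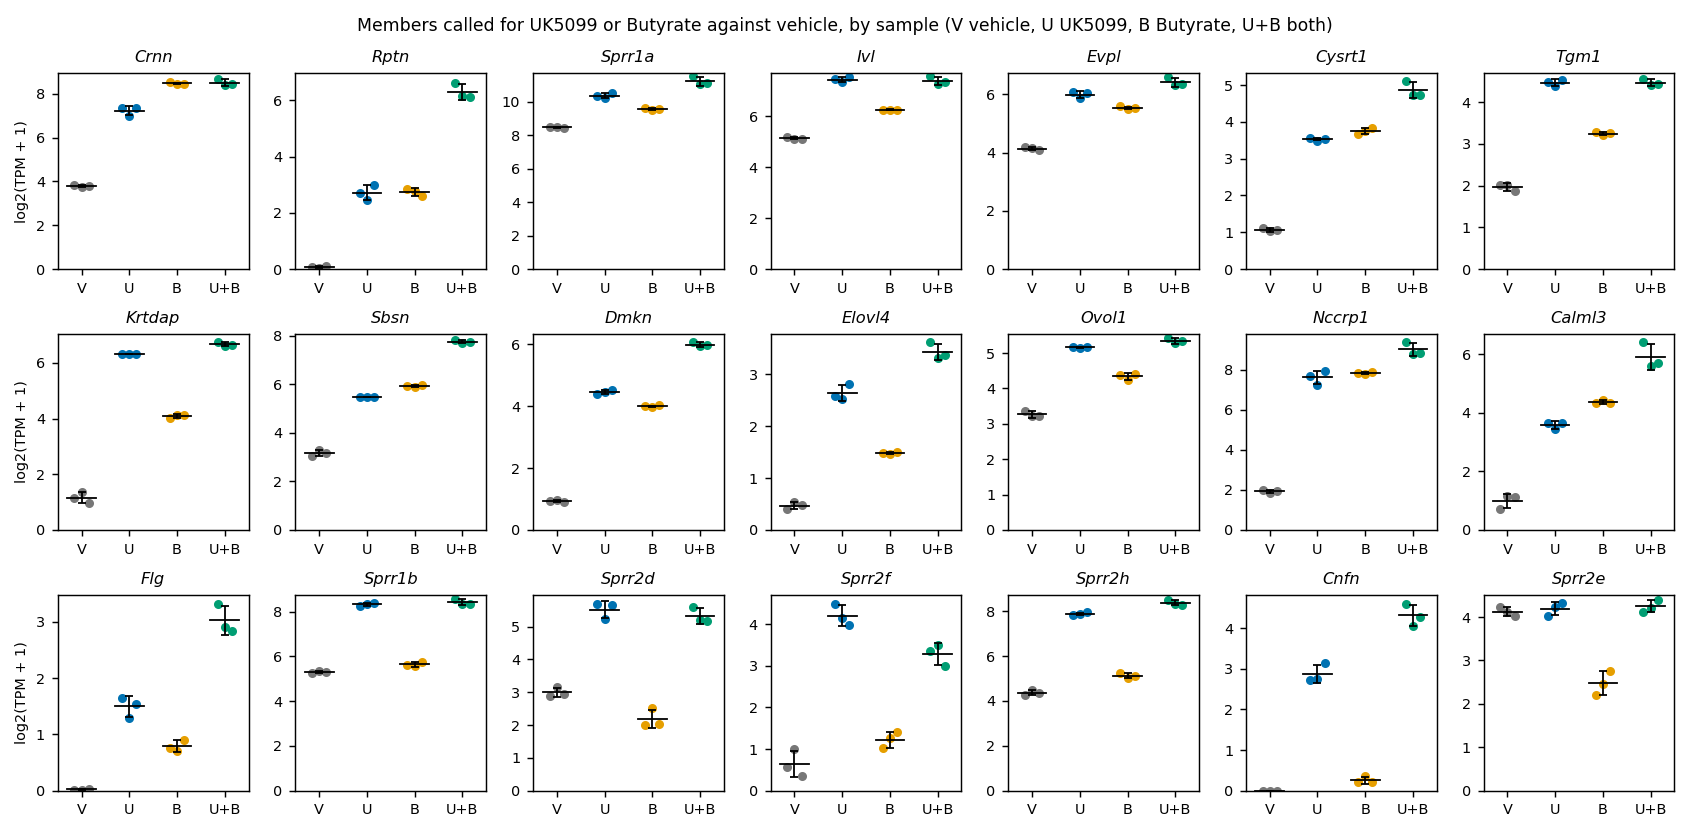
Level of the 21 members called for UK5099 or Butyrate against vehicle, as log2(TPM + 1) on the vertical axis, in each of the 12 samples. Points are samples, bars are the mean and SD of 3 samples, and the groups are vehicle (V), UK5099 (U), Butyrate (B) and both (U+B). The Butyrate samples lie below those of the other groups for Sprr2d and Sprr2e, and in the bottom row Flg, Sprr1b, Sprr2d, Sprr2f, Sprr2h and Cnfn lie nearer to vehicle under Butyrate than under UK5099.

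The filaggrin-like proteins carry an S100 domain fused to long repeats and act as scaffolds of the envelope. Crnn, which encodes cornulin, a protein of stratified squamous epithelia, was at 13.2, 12.4 and 12.8 TPM in vehicle, 164, 126 and 160.0 under UK5099, 366, 349 and 353 under Butyrate and 413, 338 and 343 under the combination. The Butyrate samples lay above all UK5099 samples, and the combination samples overlapped them. Its coefficients against vehicle were 3.44 ± 0.10 for UK5099 and 4.69 ± 0.10 for Butyrate (SE). Rptn, which encodes repetin, was near 0 in vehicle at 0.0526, 0.0271 and 0.0835 TPM. It was at 5.59, 4.52 and 6.9 TPM under UK5099 and 6.22, 5.92 and 4.99 under Butyrate, groups that overlapped. Under the combination it was at 98.6, 69.9 and 68.5 TPM, above each of the other 9 samples. The vehicle values of Rptn rest on 7 fragments in all. Flg, which encodes profilaggrin, the source of the keratin-bundling protein filaggrin, averaged 0.0161 ± 0.00153 TPM in vehicle, 1.84 ± 0.355 under UK5099, 0.731 ± 0.133 under Butyrate and 7.21 ± 1.49 under the combination (SD, n = 3), and its vehicle values also came to 7 fragments. Hrnr, which encodes hornerin, stayed below 1 TPM and averaged between 0.00653 ± 0.00577 and 0.338 ± 0.0916 TPM.

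The small proline-rich proteins are cross-linked into the envelope as flexible bridges, and 8 of them were in the table. Sprr1a was at 356, 355 and 345 TPM in vehicle, 1314, 1173 and 1468 under UK5099, 772, 719 and 759 under Butyrate and 2984, 2133 and 2191 under the combination, so the 4 groups did not overlap. Sprr1b was at 37, 39.2 and 38.6 TPM in vehicle and 47.6, 45.8 and 53.5 under Butyrate, but at 303, 324 and 328 under UK5099 and 380.3, 320.3 and 323 under the combination. The levels of Sprr1b thus fell into a low pair and a high pair of groups, and the high pair overlapped. Sprr2h showed a like split, in which no groups overlapped, with 18, 21.6 and 19.7 TPM in vehicle, 36.4, 31 and 33.6 under Butyrate, 223, 233 and 245 under UK5099 and 363, 317 and 312 under the combination.

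Within the Sprr2 genes the treatments did not move every member alike. Sprr2d was at 6.44, 7.91 and 6.7 TPM in vehicle, 50.3, 36.5 and 49.1 under UK5099, 3.03, 4.69 and 3.12 under Butyrate and 47.1, 36.2 and 34.9 under the combination. Every Butyrate sample of Sprr2d lay below every vehicle sample, with a coefficient of -0.81 ± 0.18 that stayed within the limit of 1. Sprr2e was at 17.8, 16.3 and 15.3 TPM in vehicle, 15.3, 17.9 and 18.9 under UK5099 and 16.4, 17.6 and 20.1 under the combination, groups that overlapped. Under Butyrate alone it was at 3.61, 4.53 and 5.73 TPM, below all other samples, with a coefficient of -1.65 ± 0.14. Sprr2f was at 0.481, 0.993 and 0.286 TPM in vehicle, 21.5, 16.6 and 14.8 under UK5099, 1.02, 1.39 and 1.64 under Butyrate and 9.24, 10.3 and 7.0 under the combination. The combination samples of Sprr2f lay between the UK5099 samples and the others. Sprr3 was at 0, 0.0702 and 0 TPM in vehicle, 0, 0.176 and 0.0545 under UK5099, 0.0483, 0.262 and 0.103 under Butyrate and 1.84, 1.18 and 1.33 under the combination. Sprr2b averaged between 0.361 ± 0.336 and 0.725 ± 0.135 TPM and was not called in any comparison. Of the 50-base stretches in GENCODE transcripts, Sprr2b shared 14.1%, Sprr2e 10.2% and Sprr2d 4.27% with other genes. Among values under 1000 fragments, 0 of 11 were whole for Sprr2b, 4 of 12 for Sprr2e and 8 of 12 for Sprr2d, within 0.02 of a fragment, so reads were partly split between genes and these levels are uncertain.

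Among the other envelope precursors, Ivl encodes involucrin, an early scaffold of the envelope. It was at 35.4, 33.6 and 33.2 TPM in vehicle, 174, 158 and 184 under UK5099, 75.2, 74.3 and 75.5 under Butyrate and 187, 153 and 159.8 under the combination. UK5099 and the combination overlapped, and both lay above Butyrate. Evpl encodes envoplakin, a plakin that links desmosomes and keratins to the envelope. Its level was 17.1, 16.7 and 15.9 TPM in vehicle, 66.4, 57.1 and 65 under UK5099, 47, 44 and 44.8 under Butyrate and 96, 78.4 and 80.7 under the combination, with no overlap between groups. Ppl, for its partner periplakin, averaged 24.1 ± 0.686, 38.4 ± 1.65, 31.6 ± 0.85 and 37.7 ± 1.52 TPM in the same order and was not called against vehicle. Cysrt1, for a cysteine-rich tail protein found in the envelope, was at 1.16, 1.03 and 1.09 TPM in vehicle, 10.9, 10.3 and 10.7 under UK5099, 11.8, 12.4 and 13.4 under Butyrate and 33.8, 25.7 and 25.8 under the combination. Cnfn encodes cornifelin, another envelope component, and had 0 fragments in all 3 vehicle samples. It was at 5.64, 5.77 and 7.75 TPM under UK5099, 0.153, 0.276 and 0.163 under Butyrate and 23, 15.7 and 18.5 under the combination. Against a floor of 3 fragments over the vehicle group, Cnfn was at least 94.5-fold higher under UK5099 and at least 282-fold higher under the combination. The Butyrate level of Cnfn rests on 11 fragments. Scel, for sciellin, averaged 0.0373 ± 0.0154, 0.425 ± 0.0111, 0.356 ± 0.0175 and 1.22 ± 0.19 TPM, and its combination samples lay above the rest. Scel was not called for either single treatment. With a pseudocount of 0.1 it was called for UK5099 and Butyrate, at 1.94 and 1.74, and by voom on fragments at 3.68 and 3.60.

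Transglutaminases form the cross-links of the envelope. Tgm1, for the membrane-bound enzyme, was at 3.08, 3.01 and 2.65 TPM in vehicle, 21.5, 19.8 and 22.3 under UK5099, 8.76, 8.28 and 8.53 under Butyrate and 22.6, 20.2 and 20.6 under the combination. Of its 4 values under 1000 fragments 1 was whole, so its level is uncertain. On the TPM scale the combination samples of Tgm1 overlapped those of UK5099. With median-of-ratios scaling the coefficient for Butyrate added to UK5099 was 0.297 (limma adjusted p = 0.00172), within the limit of 1. Tgm3, for the epidermal enzyme that acts late, was at or below 0.078 TPM in all 9 samples without the combination. In the combination it was at 1.98, 2.05 and 2.21 TPM, on 2483 fragments against 13, 50 and 12 in the vehicle, UK5099 and Butyrate groups. Tgm5 averaged 0.108 ± 0.0308, 0.991 ± 0.118, 1.03 ± 0.0653 and 1.43 ± 0.309 TPM. It was not called for either single treatment, but with a pseudocount of 0.1 it was called for UK5099 and Butyrate, at 2.40 and 2.45. Cst6, for cystatin M/E, which inhibits proteases that act on transglutaminases, averaged 1.01 ± 0.0482, 1.31 ± 0.337, 0.524 ± 0.0766 and 1.33 ± 0.241 TPM. Each Butyrate sample of Cst6 lay below each vehicle sample, and Cst6 was not called.

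Sbsn, Dmkn and Krtdap encode suprabasin, dermokine and keratinocyte differentiation-associated protein, which are secreted by suprabasal cells. They were consecutive among the protein-coding genes of chromosome 7 in the table, between positions 30450896 and 30490523 in the table's own coordinates, whose build was not settled. Krtdap was at 1.23, 1.56 and 0.936 TPM in vehicle, 78.7, 78.1 and 78.7 under UK5099, 15.2, 16.7 and 16.6 under Butyrate and 106, 97.3 and 98.3 under the combination. Sbsn was at 7.28, 8.81 and 7.89 TPM in vehicle, 43.4, 43.8 and 44.2 under UK5099, 59.6, 57.9 and 62.2 under Butyrate and 227, 207 and 212 under the combination. Krtdap was thus higher under UK5099 than under Butyrate, and Sbsn higher under Butyrate than under UK5099. Dmkn was at 0.907, 0.955 and 0.879 TPM in vehicle, 19.9, 20.9 and 22 under UK5099, 15, 14.7 and 15.3 under Butyrate and 66.4, 60.3 and 61.6 under the combination. All 3 genes were highest in the combination with no overlap. Sbsn shared 6.96% of its 50-base stretches with an overlapping antisense gene, Tmem147os, and had no whole value among 3 under 1000 fragments, so its level is uncertain. Cdsn, for corneodesmosin of the junctions between cornified cells, averaged 0.37 ± 0.0989 TPM in vehicle, 1.03 ± 0.206 under UK5099, 0.207 ± 0.0424 under Butyrate and 1.79 ± 0.221 under the combination.

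Enzymes of the late programme and of the lipid barrier follow. Asprv1, for a protease that cuts profilaggrin, averaged 3.5 ± 1.3, 5.22 ± 0.946, 5.22 ± 0.782 and 11.2 ± 1.28 TPM in vehicle, UK5099, Butyrate and the combination. The nuclease gene Trex2 averaged 0.84 ± 0.159, 1.24 ± 0.417, 1.7 ± 0.224 and 2.38 ± 0.365 TPM. Casp14, for a caspase of cornifying cells, averaged 0.0515 ± 0.00489 TPM in vehicle and 0.679 ± 0.0886 under UK5099. Of the 5 lipid barrier members, Elovl4, which makes very long fatty acids, averaged 0.385 ± 0.0647, 5.26 ± 0.673, 1.79 ± 0.0273 and 9.83 ± 1.24 TPM. The ceramide synthase gene Cers3 averaged 1.38 ± 0.0424, 3.03 ± 0.146, 2.4 ± 0.0108 and 4.07 ± 0.127 TPM and was called in the combination alone among the 3 treatments. The lipid transporter Abca12 and the lipoxygenases Alox12b and Aloxe3 stayed below 1 TPM, with combination means of 0.532 ± 0.0202, 0.449 ± 0.103 and 0.122 ± 0.00921 TPM. Division by the genomic span keeps long genes low on this scale. Abca12 had 13, 15 and 21 fragments in vehicle and 968, 928 and 986 in the combination.

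Of the 4 transcription factors, Ovol1, a repressor that helps keratinocytes leave the cell cycle, was at 9.35, 8.27 and 8.26 TPM in vehicle, 35.4, 34.5 and 35 under UK5099, 19.7, 17.9 and 20.3 under Butyrate and 42, 37.9 and 39.2 under the combination. None of its 3 values under 1000 fragments was whole, so its level is uncertain. Grhl3, a factor of barrier formation, averaged 3.79 ± 0.155, 8.24 ± 0.434, 4.25 ± 0.259 and 5.11 ± 0.573 TPM. Its relative Grhl1 averaged 3.81 ± 0.139, 5.62 ± 0.204, 3.99 ± 0.166 and 3.81 ± 0.363 TPM. Both Grhl genes were highest under UK5099 alone. Neither was called against vehicle, but Grhl3 under UK5099 passed the limit with median-of-ratios scaling, a pseudocount of 0.1 and voom, at 1.06, 1.10 and 1.27. Prdm1 stayed below 1 TPM, with means from 0.181 ± 0.00772 in vehicle to 0.453 ± 0.0718 in the combination. Nccrp1, an F-box-like gene of squamous epithelia and one of the genes that led to the choice of the set, was at 3.01, 2.64 and 2.85 TPM in vehicle, 206, 152 and 240.2 under UK5099, 230.2, 221 and 232 under Butyrate and 676, 441 and 458 under the combination. UK5099 and Butyrate overlapped for Nccrp1, and the combination lay above both. Calml3, for a calmodulin-like protein of epithelial cells, was at 0.637, 1.21 and 1.18 TPM in vehicle, 11.5, 9.83 and 11.7 under UK5099, 19, 20.8 and 19.4 under Butyrate and 83.9, 48 and 51.1 under the combination. Its first combination sample, from a library that stood apart, was the highest. Rhov, for a small GTPase, averaged 88.6 ± 2.98, 116 ± 6.66, 90.7 ± 1.59 and 84.7 ± 3.49 TPM and was not called.

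The combination was the group with the highest mean for 32 of the 41 members, UK5099 for 8 (Sprr2d, Sprr2f, Ivl, Ppl, Tgm1, Grhl1, Grhl3 and Rhov), Butyrate for 1 (Sprr2b) and vehicle for 0. For 10 members (Crnn, Sprr1b, Sprr2b, Sprr2d, Sprr2e, Ivl, Ppl, Tgm1, Cst6 and Casp14) the 2 leading means differed by less than the larger of their SDs. With median-of-ratios scaling the coefficients of Sprr2d, Ivl, Ppl and Tgm1 for Butyrate added to UK5099 turned positive, so that their place in this order depends on the scaling. For 25 members, or 61.0%, every combination sample lay above each of the 9 other samples, as was the case for 951 of the 24674 genes, or 3.85%. Against vehicle, the UK5099 samples lay above without overlap for 35 members, the Butyrate samples for 30 and the combination samples for 37, as was the case for 14.1%, 15.9% and 15.6% of all genes. The Butyrate samples lay below without overlap for 4 members, Sprr2d, Sprr2e, Cst6 and Cdsn, and for 44.2% of all genes. Nothing is read from any of these counts, since the members were chosen by values from these same samples, the combination among them.

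**Figure D2:**
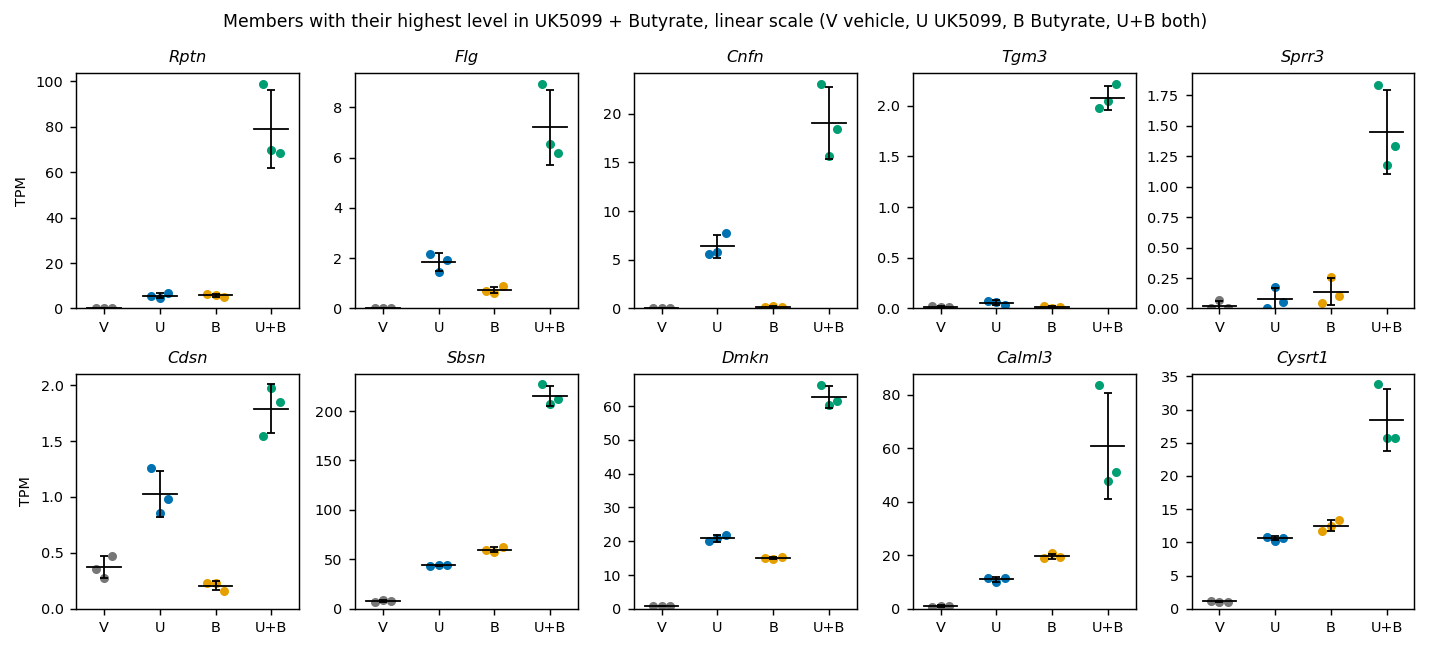
TPM of 10 members on a linear vertical axis in each of the 12 samples, with the mean and SD of 3 samples, for vehicle (V), UK5099 (U), Butyrate (B) and both (U+B). In each panel the combination samples lie above the others. Tgm3 reaches 1.98 to 2.21 TPM there and is at or below 0.078 TPM in the other groups, and Rptn averages 79.0 TPM against 5.67 and 5.71 with the single treatments.

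The differences among the treated groups take in no vehicle mean, although the vehicle samples enter the shared estimate of the spread. The treated samples of Nccrp1, Krtdap and Crnn entered the choice of the set, and no p-value is given for these 3. The counts below include genes of these 3 and use samples by which the set was chosen. Counts and p-values are therefore given as descriptions, and nothing is read from the counts. The first comparison asks what UK5099 changed in organoids that also received Butyrate. Of 41 members 22 were called higher and 0 lower when UK5099 was added to Butyrate, where 0.551% of all genes were called higher and 0.357% lower. The median coefficient was 1.103 for the members and -0.0429 for all genes. Cnfn had the largest coefficient, at 4.05 ± 0.14 (limma adjusted p = 6.97e-08), followed by Rptn at 3.56 ± 0.16 (4.25e-07), Sprr2h at 3.26 ± 0.08 (1.33e-08) and Sprr2d at 3.14 ± 0.18 (1.67e-06). Sprr2e, lower under Butyrate alone, rose by 1.77 ± 0.14 when UK5099 was added (limma adjusted p = 1.09e-05) and then overlapped the vehicle and UK5099 groups. Sprr1b, Sprr1a and Sprr2f rose by 2.77 ± 0.08, 1.68 ± 0.12 and 2.06 ± 0.20. Sbsn rose by 1.83 ± 0.06 and Dmkn by 1.99 ± 0.04, Elovl4 by 1.95 ± 0.09 and Tgm3 by 1.60 ± 0.03 (limma adjusted p = 1.89e-09). Crnn was not among the 22, with a coefficient of 0.03 ± 0.10 that turned to -0.06 without combination replicate 1. Without that replicate 4 calls fell within the limit of 1, Ovol1 at 0.96, Cysrt1 at 0.98, Sprr3 at 0.99 and Nccrp1 at 0.98. Without both libraries that stood apart 18 members were called, where 0.511% of all genes were called higher and 0.353% lower. Ovol1 was also within the limit without Butyrate replicate 2, at 0.95. By voom on fragments Rptn and Calml3, at 3.92 and 1.74, no longer passed, with limma adjusted p-values of 0.0109 and 0.024, and Nccrp1, at 1.33, lost its call as well.

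The second comparison asks what Butyrate changed in organoids that also received UK5099. Of 41 members 11 were called higher and 0 lower, where 0.823% of all genes were called higher and 1.15% lower, and the medians were 0.334 for the members and -0.0803 for all genes. The members called were Crnn, Nccrp1, Flg, Rptn, Sprr3, Cnfn, Cysrt1, Tgm3, Sbsn, Dmkn and Calml3. Rptn had the largest coefficient, at 3.58 ± 0.16 (limma adjusted p = 7.99e-08), followed by Calml3 at 2.33 ± 0.20 (5.67e-06) and Sbsn at 2.27 ± 0.06 (4.59e-09). Tgm3 rose by 1.54 ± 0.03, Dmkn by 1.54 ± 0.04, Flg by 1.53 ± 0.13 and Cnfn by 1.44 ± 0.14. Ivl, Tgm1 and Ppl, with coefficients of -0.05 ± 0.08, 0.00 ± 0.06 and -0.02 ± 0.04, were not called, and all 3 coefficients turned positive with median-of-ratios scaling, at 0.26, 0.30 and 0.28. Grhl1, Grhl3 and Rhov had coefficients of -0.46 ± 0.05, -0.60 ± 0.07 and -0.45 ± 0.04, lower in the combination than under UK5099 alone but within the limit of 1. Without both libraries that stood apart 12 members were called, where 0.77% of all genes were called higher and 1.09% lower. By voom on fragments Flg and Cnfn, at 2.29 and 1.88, no longer passed, with limma adjusted p-values of 0.0259 and 0.0937, and Nccrp1, at 1.71, lost its call as well. There were 10 members called higher whichever drug was added to the other, Flg, Rptn, Sprr3, Cnfn, Cysrt1, Tgm3, Sbsn, Dmkn, Nccrp1 and Calml3, and both comparisons share the combination samples. The share of all genes called in both comparisons was not counted, and nothing is read from this overlap.

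The third comparison sets the single treatments against each other. Under Butyrate 10 of 41 members were lower than under UK5099 and 1, Crnn, was higher, where 1.18% of all genes were called lower and 0.681% higher, with medians of -0.347 for the members and -0.0321 for all genes. The lower members were Sprr2d, Sprr2f, Sprr2h, Sprr1b, Sprr2e, Cnfn, Ivl, Tgm1, Elovl4 and Krtdap. The largest difference was that of Sprr2d, at -3.33 ± 0.18 (limma adjusted p = 3.78e-07), followed by Sprr2f at -2.98 ± 0.20 (1.79e-06) and Sprr2h at -2.76 ± 0.08 (1.2e-08). The coefficients of Sprr1b, Cnfn and Sprr2e were -2.68 ± 0.08, -2.62 ± 0.14 and -1.72 ± 0.14. Of the 8 small proline-rich genes 5 were thus lower under Butyrate than under UK5099, while Sprr1a, at -0.81 ± 0.12, was within the limit of 1. The scaffold gene Rptn, at 0.02 ± 0.16, and the protease gene Asprv1, at 0.00 ± 0.20, had coefficients near 0 whose sign changed when single samples were left out. Cysrt1 and Sbsn had coefficients of 0.22 ± 0.09 and 0.44 ± 0.06 in the direction of Butyrate and were not called. Cnfn was called in all 3 comparisons among treated groups.

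**Figure D3:**
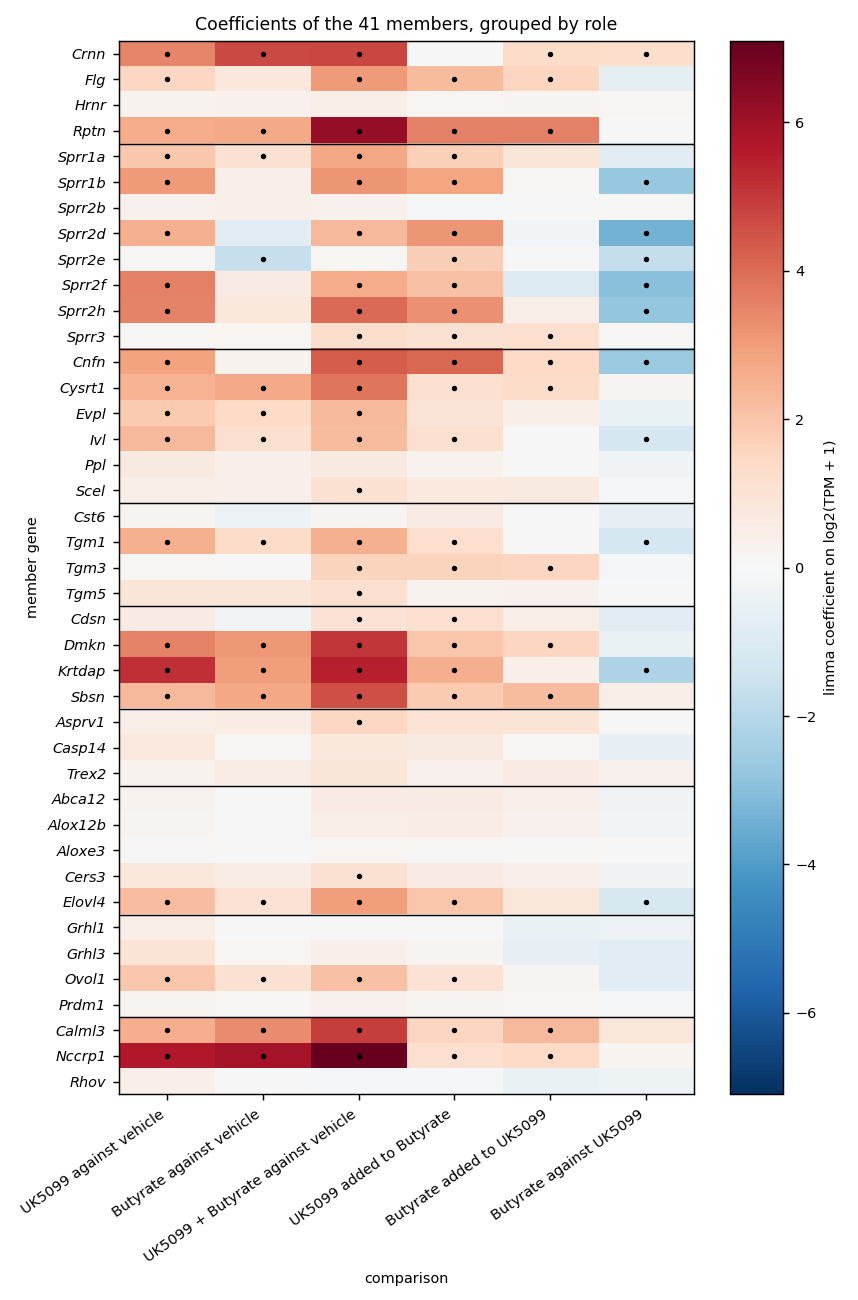
Limma coefficients on log2(TPM + 1), by colour, for the 41 members (vertical axis, lines separate 9 roles) in 6 comparisons (horizontal axis). Red is higher and blue lower in the first-named group or with the added drug, and a dot marks a gene called. The last column is mostly blue among the small proline-rich genes, where 5 of 8 carry a dot.

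The interaction term gives how far the combination departs from the sum of the single effects on log2(TPM + 1). It was called for 12 of 41 members, 4 positive and 8 negative, where 0.515% of all genes were called positive and 0.499% negative. The choice of the set used this term too, and nothing is read from the count. The positive ones were Sprr2e at 1.70 ± 0.19, Tgm3 at 1.55 ± 0.04, Cnfn at 1.18 ± 0.19 and Sprr3 at 1.03 ± 0.15. For Tgm3 both single treatments left a level near 0, and the term was 3.86 with a pseudocount of 0.1 and 5.92 by voom on fragments. The term of Cnfn was not stable, at 0.01 with a pseudocount of 0.1 and -1.12 by voom, neither called. That of Sprr3 was 2.34 and 2.56 under these settings and also not called. Rptn and Flg, with terms of 0.91 ± 0.23 and 0.76 ± 0.18 that were not called, turned to -1.47 and -0.91 with a pseudocount of 0.1. There the term of Rptn was called, and with median-of-ratios scaling it was called in the opposite direction, at 1.13. In ratios of mean TPM, Rptn was 104-fold higher under UK5099, 105-fold under Butyrate and 1452-fold under the combination. The sign of the interaction of Rptn and Flg, which were near 0 in vehicle, therefore depended on the pseudocount. The term of Sprr3 was within the limit of 1 without vehicle replicate 2, UK5099 replicate 1, Butyrate replicate 1 or combination replicate 1, at between 0.92 and 1.00. Without both libraries that stood apart 2 positive and 9 negative terms were called, against 0.523% and 0.507% of all genes. Cnfn at 0.97, Sprr3 at 0.87 and Sprr2f at -1.39 lost their calls there, and Evpl at -1.02 and Calml3 at -1.27 gained one.

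Of the 41 members, 13 lay in the epidermal differentiation complex on chromosome 3. The stretch counted here ran in the table from Lor to Tchh, positions 91987578 to 93356385 with the build not settled, and held 35 protein-coding genes. Its ends are the first and last genes listed here, not known borders of the complex. Under UK5099 13 of the 35 were called higher, 4 of them no members. Under Butyrate 8 were called higher, 4 of them no members, and 2 lower. Under the combination 18 were called higher, 8 of them no members. Of all protein-coding genes 1.27%, 1.38% and 2.25% were called higher in these contrasts. Nothing is read from these counts, since the stretch was drawn around the listed genes and holds 13 members. The calls did not cover the whole cluster. Lor, for the major late envelope protein loricrin and named here after its values were seen, averaged 8.37 ± 0.481 TPM in vehicle, 9.63 ± 2.31 under UK5099, 8.41 ± 0.778 under Butyrate and 7.60 ± 0.0518 under the combination, and was not called.

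**Figure D4:**
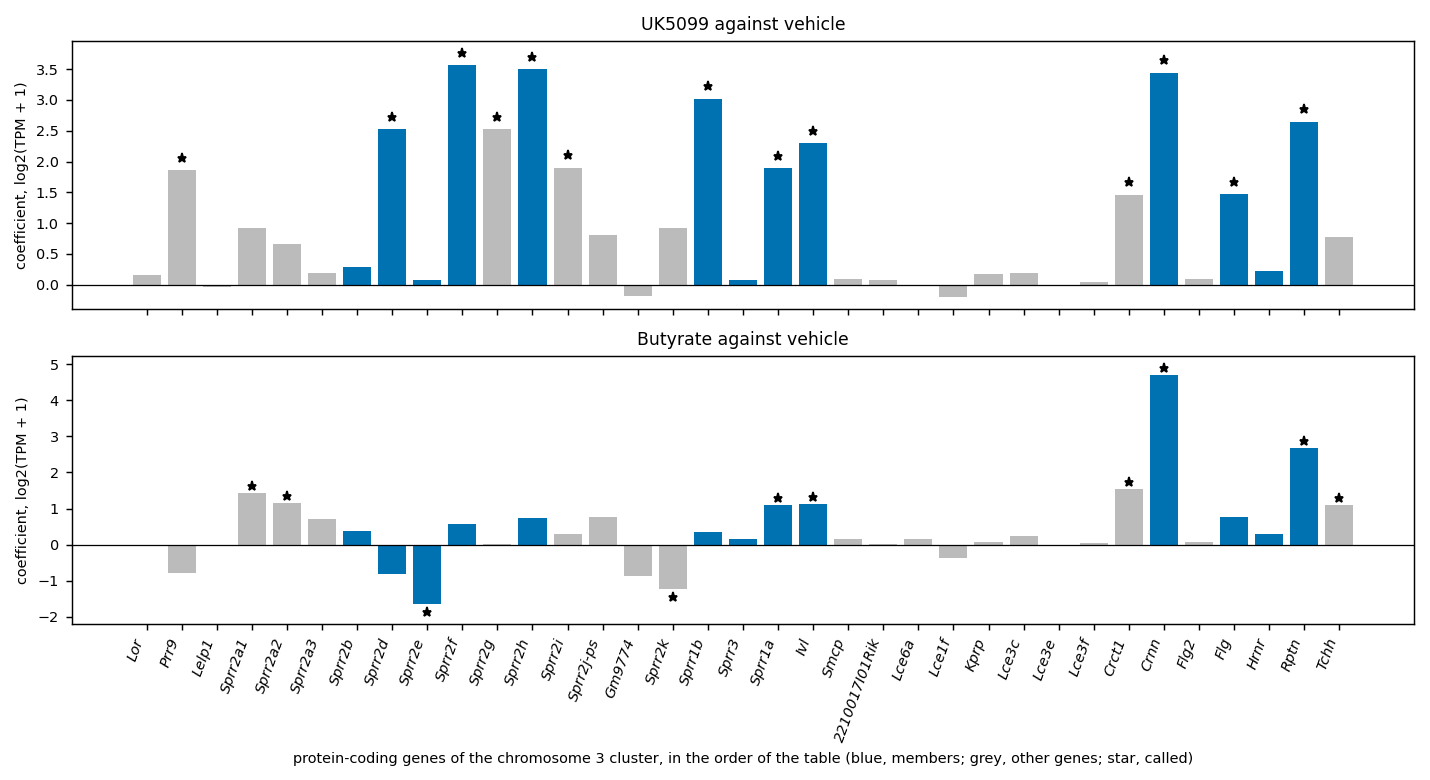
Coefficients against vehicle on log2(TPM + 1) (vertical axes) of the 35 protein-coding genes of the chromosome 3 cluster in table order (horizontal axis), for UK5099 above and Butyrate below. Blue bars are members, grey bars other genes and stars mark genes called. UK5099 has 13 stars, all above 0, and Butyrate has 8 above 0 and 2 below 0, at Sprr2e and Sprr2k.

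Genes of the same pathways that are no members were followed from lists. Of 31 late envelope genes listed 16 were in the table. Under UK5099 3 of these were called higher, under Butyrate 4 were higher and 1 lower, and under the combination 7 were higher. Of all genes 0.928%, 1.13% and 1.79% were called higher in these contrasts, and 0.912%, 2.42% and 4.63% lower. Crct1, for a cysteine-rich protein of the cluster, averaged 0.0889 ± 0.0820 TPM in vehicle, 2.07 ± 0.855 under UK5099, 2.21 ± 0.597 under Butyrate and 20.8 ± 0.942 under the combination, the same order as Rptn. Tchh, for trichohyalin, averaged 6.75 ± 0.208, 12.2 ± 1.05, 15.5 ± 1.01 and 27.7 ± 2.35 TPM. Sprr2g averaged 1.31 ± 0.827, 12 ± 2.95, 1.28 ± 0.297 and 7.66 ± 1.72 TPM, an order like that of Sprr2f. Sprr2a1 and Sprr2a2 were called higher under Butyrate, but their spans overlap in the table and they share 96.3% and 96.5% of their 50-base stretches with other genes, so their levels are uncertain.

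Of the 14 barrier lipid genes listed, all in the table, Cyp4f39 was called higher with each single treatment and Sdr9c7 in addition under the combination. Cyp4f39, for an enzyme of acylceramide synthesis, averaged 0.892 ± 0.00887 TPM in vehicle, 9.38 ± 0.52 under UK5099, 5.96 ± 0.166 under Butyrate and 12 ± 0.909 under the combination. Of the 12 squamous transcription regulators, Zfp750, a factor of keratinocyte differentiation, was higher with each single treatment, at 11.7 ± 0.458, 71.5 ± 3.5, 53.7 ± 1.65 and 82.8 ± 4.19 TPM. Most of the listed pathway genes outside the set were thus not called, and the lists, like the members, were drawn up with other results of these data known. The shares of all genes given with the late envelope list hold for these lists too, and nothing is read from the list counts.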

How the data were processed

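RNA was sequenced from 12 organoid samples in 4 groups of 3, grouped by the sample labels. Per the labels, libraries were depleted of ribosomal RNA, enriched for mRNA and sequenced as read pairs. The submitters' processing notes name STAR 2.7.9a, Partek and GRCm39, whereas the methods for these samples name fastp, STAR, RSEM and GRCm38. Krtdap starts at 30487321 in the table, outside its GRCm38.p6 promoter window of 30787655 to 30787954, so the table is not on GRCm38. Whether it is on GRCm39 was not checked. The authors deposited TPM per gene. The listed length equalled stop minus start in 100% of genes, and low values were whole multiples of 1 fragment divided by that span. Between 75.4% and 76.6% of protein-coding values under 1000 fragments were whole within 0.02 of a fragment, which gave the depth of each sample.

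Following the study's methods, limma was fitted to log2(TPM + 1) with UK5099, Butyrate and interaction terms over all 24674 genes, with moderated errors (empirical Bayes) and p-values adjusted by Benjamini-Hochberg. No pseudocount is stated there, and 1 was used. The members, gene lists and comparisons were chosen with earlier results of these data known. Members that reached 1 TPM were named with means, and those called for a single treatment and at 10 TPM or more with every value. Listed genes that are no members were named where called for a single treatment, at most 8 by level. One listed regulator is not reported here. Alternatives were a pseudocount of 0.1, a filter at a mean of 1 TPM, median-of-ratios scaling, voom on estimated fragments, a replicate block, a robust prior with a trend and each sample left out. Leaving out both libraries that stood apart was added after seeing the data. The fit and the step finder were tested on simulated data. Promoter windows came from RefSeq, with motifs searched on both strands. The fits used limma 3.58.1 in R 4.3.3, and other steps pandas 2.3.3 and numpy 2.4.6 in Python 3.11.15.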

Additional observations from a re-analysis of the deposited data

Results flagged for a closer look

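For 12 members UK5099 had a different effect in the presence of Butyrate by the interaction term of limma on log2(TPM + 1). These terms use the vehicle samples by which the set was chosen and are given as values.

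The term was negative for Nccrp1 (-4.51), Crnn (-3.42), Krtdap (-2.59), Dmkn (-1.52), Sprr2f (-1.50), Cysrt1 (-1.36), Tgm1 (-1.29) and Ivl (-1.17). For these 8 the coefficient of each single treatment was positive and the combination lay below their sum. Sprr2f was no longer called without any of 8 of the 12 samples in turn, with terms between -1.54 and -1.36 there, nor with a pseudocount of 0.1, at -2.18.

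The term was positive for Sprr2e (1.70), Tgm3 (1.55), Cnfn (1.18) and Sprr3 (1.03). Sprr2e was lower with Butyrate alone and overlapped with vehicle in the combination. Tgm3 had 2483 fragments in the combination and at most 50 in any other group. Cnfn was not called with a pseudocount of 0.1, at 0.01, or by voom on fragments, where it was negative at -1.12. Sprr3 had 1 fragment in the vehicle samples together. Its term was not called with a pseudocount of 0.1 or by voom. Without both libraries that stood apart Cnfn, Sprr3 and Sprr2f were not called, at 0.97, 0.87 and -1.39.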

How the results depend on the processing

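Counts of members called moved by more than 1.5 times only by voom on fragments, with 32 for UK5099 and 23 for Butyrate against vehicle and 17 for Butyrate against UK5099, and with a pseudocount of 0.1, also 17 for that last comparison. By voom 3.03% and 2.77% of all genes were called higher and lower for UK5099, and 6.84% and 3.7% for Butyrate. For Butyrate against UK5099 the shares were 4.45% and 2.76% by voom and 2.13% and 2.65% with a pseudocount of 0.1. Nothing is read from these counts. Leaving out single samples gave 20 for UK5099, 14 to 15 for Butyrate, 26 to 27 for the combination, 10 to 12 for the interaction, 18 to 23 for UK5099 added to Butyrate, 11 to 13 for Butyrate added to UK5099 and 11 between the single treatments. Over these fits 0.466% to 1.83% of all genes were called higher and 0.344% to 4.85% lower. The filter at 1 TPM kept 29 members and left 9 to 22 called. Of the genes it kept, 0.839% to 3% were called higher and 0.652% to 8.17% lower.

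Of 1631 coefficients refitted under settings other than single samples left out, 1518 kept their direction and call, 67 gained a call, 17 lost one and 29 changed sign. The 1518 include 203 from the filter, 238 from the replicate block and 238 from the robust prior with a trend. These 3 settings leave the coefficients as they were, so the direction could not change there. By voom on fragments 187 stayed the same, 31 gained a call, 7 lost one and 13 changed sign. Against vehicle, the combination coefficient of Grhl1 turned to 0.37 with median-of-ratios scaling and 0.47 by voom, and that of Rhov to 0.40 under each. With UK5099 added to Butyrate, Grhl1 turned to 0.0655 and 0.0818 and Rhov to 0.0492 and 0.0502. With Butyrate added to UK5099, Tgm1 turned to 0.30 and 0.31, Ppl to 0.28 and 0.29, Sprr2d to 0.11 and 0.12 and Ivl to 0.26 and 0.27. With a pseudocount of 0.1 and by voom, the interaction of Scel turned to -0.42 and -1.77, Trex2 to -0.0183 and -0.0128, Rptn to -1.47 and -2.67 and Flg to -0.91 and -3.23, and by voom that of Cnfn to -1.12. Without both libraries that stood apart, the interaction of Trex2 turned to -0.0506, Crnn to -0.0643 with UK5099 added, and Cst6 and Sprr1b to -0.0949 and -0.0186 with Butyrate added. Of these terms only that of Cnfn had been called as reported. Among the turned interaction values those of Scel by voom and Rptn with a pseudocount of 0.1 passed both limits, while Rptn was called positive, at 1.13, with median-of-ratios scaling. The cause was not tested.

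Leaving out single samples changed the sign of coefficients near 0. Their ranges were -0.0633 to 0.0381 for Grhl1 in the combination against vehicle, -0.0689 to 0.193 for the interaction of Trex2 and -0.0643 to 0.0789 for Crnn with UK5099 added. With Butyrate added they were -0.0519 to 0.0317 for Tgm1, -0.0631 to 0.134 for Cst6, -0.0594 to 0.0019 for Ppl, -0.137 to 0.0103 for Ivl and -0.0315 to 0.114 for Sprr2e. Between the single treatments they were -0.10 to 0.12 for Asprv1, -0.11 to 0.15 for Rptn and -0.0054 to 0.0748 for Tgm5.

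Same-numbered samples of different groups did not deviate together, with correlations of -0.107 to 0.029, so the numbers were not taken to pair samples. With the replicate number as a block 20, 15, 27, 12, 22, 11 and 11 members were called in the 7 comparisons, as without it. With the block 0.494% to 1.8% of all genes were called higher and 0.357% to 4.61% lower. Depth limits members near 0 in vehicle, such as Cnfn, Rptn and Flg, with 0, 7 and 7 fragments there.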

Other observations

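Some late envelope genes outside the set, chosen after their values were seen, were also highest in the combination. Lce3c, a late cornified envelope gene, averaged 0.0640 TPM in vehicle, 0.206 under UK5099, 0.274 under Butyrate and 3.22 in the combination. Lce3f averaged 0 TPM in vehicle and 1.01 with the combination. Sprr2i averaged 0.310, 3.82, 0.589 and 13.7 TPM in vehicle, UK5099, Butyrate and the combination. Prr9, a gene of the same cluster, had another order, at 27.1, 101, 15.3 and 32.3 TPM. Among suprabasal keratins, Krt10 averaged 2.64 TPM in vehicle, 118 under UK5099, 8.14 under Butyrate and 35.8 in the combination, while Krt13 averaged 11.6, 264, 97.3 and 416 TPM.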
